A study of Mus musculus with 58 samples.

Results

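Fast fibre sarcomere genes are the genes of the contractile machinery that fast-twitch skeletal muscle fibres use. They were followed here through 10 gene symbols: the fast myosin heavy chains Myh1, Myh2 and Myh4, the fast regulatory light chain Mylpf, the fast troponins Tnnt3, Tnni2 and Tnnc2, the Z-disc protein gene Actn3, the calcium buffer Pvalb and the myosin light chain kinase Mylk2. Every probe set whose annotation names one of these symbols and no other was taken, which gave 15 of the 45037 probe sets and 10 of the 18193 genes with a probe set of their own. A probe set is a group of short probes on the array that together give 1 intensity for a transcript.

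Quadriceps muscle RNA of 34 male mice in 7 groups was hybridised to 58 single-channel Affymetrix arrays. Experiment 1 held 6 mice of line 20b and 6 of line 41, both CUGexp transgenic (expanded CUG repeat RNA) on an FVB background, and 6 FVB wild-type mice, all 6 months old, with each RNA on a 430A and a 430B array. In experiment 2 there were 3 Clcn1-null (myotonic) mice, a Clcn1 knockout with a BALB background, and 3 BALB wild-type mice, all 3 months old, on the same array pair. Experiment 3 held 5 Mbnl1-null mice, an Mbnl1 knockout with an FVB background, and 5 FVB wild-type mice, all 3 months old, on a single array that carries the probe sets of both. The genetic changes were constitutive and no mouse had any other treatment. Each transgenic line is a single line, and the labels do not name the promoter of the transgene or say whether mice of different groups were littermates.

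Fast fibres of adult mouse limb muscle are sorted by the myosin heavy chain they carry. Myh2 encodes the heavy chain of type IIA fibres, Myh1 that of type IIX fibres and Myh4 that of type IIB fibres, which shorten fastest and rely most on glycolysis. Calcium released in the fibre binds troponin C, the troponin complex lets tropomyosin shift on actin, and parvalbumin then takes up calcium so that the fibre relaxes quickly.

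The promoter windows of the 3 heavy chain genes and of Pvalb are shown because the heavy chains sort fast fibres by type and Pvalb is the other member with a MEF2 match. Promoter windows, from 250 bases before to 50 bases after an annotated transcription start, were found for 6 of the 10 genes, in 7 windows (RefSeq, build GRCm38.p6). The 3 heavy chain genes lie in a row on chromosome 11, all on the plus strand. The Myh2 window spans chr11:67170777-67171076, the Myh1 window chr11:67199852-67200151 and the Myh4 window chr11:67237562-67237861. The Myh1 window lies 29075 bases after that of Myh2, and the Myh4 window 37710 bases after that of Myh1. Pvalb, on the minus strand, has 2 windows, of which the one further upstream is printed, chr15:78206351-78206650. Each sequence is written 5′ to 3′ on the gene's own strand, and capitals mark matches to the MEF2 motif and to TATAAA, searched on both strands.
Myh2: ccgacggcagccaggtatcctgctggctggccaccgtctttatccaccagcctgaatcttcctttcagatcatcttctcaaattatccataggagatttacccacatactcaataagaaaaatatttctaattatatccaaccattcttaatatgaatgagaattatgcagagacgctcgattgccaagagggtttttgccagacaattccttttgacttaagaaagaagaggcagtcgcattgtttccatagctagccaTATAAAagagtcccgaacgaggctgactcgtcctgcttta
Myh1: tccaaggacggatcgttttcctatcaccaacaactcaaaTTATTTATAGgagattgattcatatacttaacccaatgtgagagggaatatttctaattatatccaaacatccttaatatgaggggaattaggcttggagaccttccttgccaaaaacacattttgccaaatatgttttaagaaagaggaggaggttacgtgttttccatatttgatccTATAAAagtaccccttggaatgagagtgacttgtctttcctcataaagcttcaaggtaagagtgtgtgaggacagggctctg
Myh4: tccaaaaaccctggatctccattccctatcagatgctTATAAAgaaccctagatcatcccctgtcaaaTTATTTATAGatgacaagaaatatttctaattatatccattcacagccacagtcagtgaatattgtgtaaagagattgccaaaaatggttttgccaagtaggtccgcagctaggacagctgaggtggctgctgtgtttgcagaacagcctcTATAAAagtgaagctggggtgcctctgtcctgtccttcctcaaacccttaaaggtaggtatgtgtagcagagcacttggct
Pvalb: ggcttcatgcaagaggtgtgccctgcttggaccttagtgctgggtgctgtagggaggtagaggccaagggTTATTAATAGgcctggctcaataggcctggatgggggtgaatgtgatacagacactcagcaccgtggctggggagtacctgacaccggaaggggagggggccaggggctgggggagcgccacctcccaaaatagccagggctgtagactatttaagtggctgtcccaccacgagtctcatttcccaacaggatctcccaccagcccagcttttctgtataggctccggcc

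The MEF2 motif, bound by the muscle transcription factors MEF2A, MEF2C and MEF2D, matched at positions -211 to -202 of the Myh1 window, counted from the start, and at -182 to -173 of the Myh4 window. It also matched in the printed Pvalb window, at -180 to -171, and in no other of the 7 windows. Of all 32851 promoter windows 1.86% held a MEF2 match. TATAAA on either strand matched in the 3 heavy chain windows and in none of the others, against 13.6% of all windows. One TATAAA stood at -32 to -27 in Myh1 and at -31 to -26 in Myh4, and the match of Myh2 stood at 10 to 15, after the annotated start. The MEF2 matches of Myh1 and Myh4 each overlap a TATAAA, both read on the strand opposite to the gene. The E-box CANNTG, which reads the same on both strands, matched 3 times in Myh4 and not in the Myh1 or Myh2 window, and 72.3% of all windows held it. These are matches of letters and not measured binding sites.

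**Figure D1:**
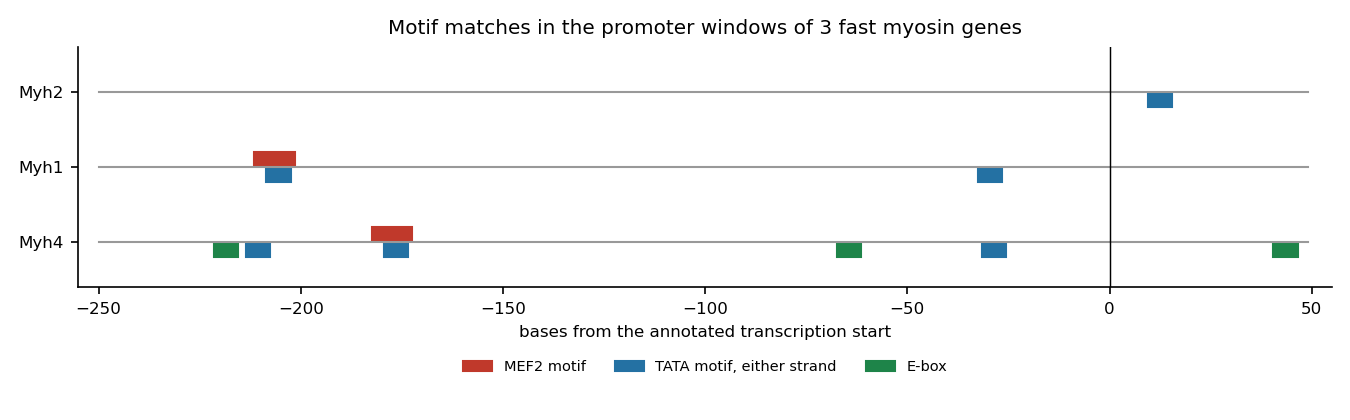
Position of motif matches (boxes) in the promoter windows of Myh2, Myh1 and Myh4, in bases from the annotated transcription start (vertical line). Myh1 and Myh4 hold a MEF2 match (first base at -211 and -182) and a TATAAA close to the start (-32 and -31), and Myh2 holds its TATAAA after the start.

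The 3 heavy chain windows are alike over much of their length. In global alignments Myh2 and Myh1 shared 184 of 247 aligned bases (74.5%), Myh1 and Myh4 189 of 273 (69.2%) and Myh2 and Myh4 171 of 251 (68.1%). The longest run found in all 3 windows is 20 bases, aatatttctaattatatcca, on chromosome 11. It begins at -130 in Myh2, at -165 in Myh1 and at -163 in Myh4, and occurs in 3 of the 32851 windows.

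Most members are bright, and a few probe sets are not. Where a gene has several probe sets, the brightest on average is called its lead. The leads stood between rank 4 and rank 57 of the 22626 probe sets of the 430A array in experiment 1 for the 9 genes other than Mylk2. Those 9 stood between rank 4 and rank 272 in experiment 2 and between rank 1 and rank 183 of 45037 in experiment 3. Mylk2 ranked 3039, 3410 and 1401 in experiments 1, 2 and 3. The dimmest probe sets were Myh1 1452465_at, at ranks 12121, 11700 and 19230, and Tnni2 1438608_at, at ranks 10107, 10412 and 8869. The brightest log2 value on a 430A array of experiment 1 lay between 16.91 and 17.46, so the brightest members were read close to the top of the scale. Levels of different probe sets are not set against each other, since probes differ in how strongly they bind.

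All 10 skeletal muscle markers exceeded an intensity of 32 in at least 1 mouse of every group, with summed intensities of 289000 to 494000 over the 34 mice. FVB wild-type mice 1 and 2 of experiment 1 stood apart: the mean log2 value of 14 slow fibre genes was 9.79 and 8.18 in them and 11.14 to 11.70 in the other 4. The summed intensity of 6 adipocyte markers was also highest in these mice, 113600 and 119500, against 41220 to 60070 in the other 4. Of 5 tested adipocyte markers 0 were called in line 41, between the lines and in Mbnl1-null mice. Without the wild-type mice 1 and 2, Cidec was lower in line 20b than in line 41 (-0.95, limma adjusted p = 0.0232). Of 8 endothelial and mural markers 1 was higher and 1 lower between the lines, and 0 were called in Clcn1-null and Mbnl1-null mice. Of the skeletal muscle markers, 2 were higher and 1 lower in line 20b, 2 higher in line 41, 2 lower between the lines, 2 lower in Clcn1-null mice and 0 called in Mbnl1-null mice. The 2 lower between the lines, Ryr1 and Casq1, are also counted among the other fast fibre genes further on. Of the other marker lists, 8 fibroblast and tendon genes gave 1 higher and 1 lower in line 20b, 0 and 0 in line 41, 1 and 0 between the lines, 0 and 0 in Clcn1-null mice and 1 and 0 in Mbnl1-null mice. For 4 tested nerve and Schwann cell genes these counts were 0 and 2, 0 and 1, 0 and 0, 1 and 0, and 0 and 0. For 5 or 6 tested leukocyte and blood genes they were 0 and 2, 1 and 0, 0 and 0, 1 and 0, and 1 and 0. Member results of experiment 1 are given without these mice wherever a call changes, and so are the list counts that move. The list counts without them were added after the data were seen. Without these mice the line 20b counts became 0 and 0 for the fibroblast and tendon genes, 0 and 1 for the nerve genes and 0 and 0 for the leukocyte genes, and line 41 had 0 nerve genes and 1 skeletal muscle marker called. Of the targeted genes, Clcn1 read 9.30 to 9.54 in Clcn1-null mice, against 10.25 to 11.27 in BALB wild type (log2 change -1.42, SE 0.28, limma adjusted p = 0.0507). Mbnl1 read 12.90 to 13.20 in Mbnl1-null mice, against 13.76 to 13.88 in FVB wild type (-0.73, SE 0.06, limma adjusted p = 4.83e-05). The Clcn1 reading fell, and was called, in the CUGexp lines 20b (-0.95, SE 0.10, limma adjusted p = 2.68e-06) and 41 (-0.46, SE 0.10, limma adjusted p = 0.00743) and in Mbnl1-null mice (-1.11, SE 0.14, limma adjusted p = 0.000405). Where the probes of these genes lie relative to the deleted parts was not looked up. All values below are log2 of the deposited intensity, a change is the first group minus the second, and a probe set is called at a limma adjusted p under 0.05.

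In line 20b muscle the heavy chains moved in opposite directions. The type IIX heavy chain Myh1 rose, the type IIB heavy chain Myh4 fell, and Myh2 was not called. Mylk2 and Actn3 fell as well, and the light chain, troponin C and parvalbumin were not called. Of the 15 member probe sets 2 were higher and 5 lower, and 8 were not called, where 16.9% of all 27330 tested probe sets were called (7.38% higher and 9.56% lower). In each comparison of experiment 1 the median SE of the members was 0.06, against 0.11 for all tested probe sets. Smaller changes can therefore be called among the members, and some of the 15 share a gene. In 5 of the 15 the line 20b mice did not overlap the wild-type mice, against 9.58% of all probe sets. The median change of the 15 was -0.12, and that of all tested probe sets was -0.01. The small falls depended on the scaling. After quantile normalisation the changes were 0.04 for Tnni2 1416889_at, 0.03 for Tnnc2, 0.02 for Pvalb and -0.01 for Mylpf. Mylk2 (-0.53), Myh1 1427868_x_at (0.43) and Myh1 1452465_at (1.33) were among those still called.

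At the lead probe set of Myh1 (1427868_x_at) the 6 line 20b mice read 15.97 to 16.26 with a median of 16.09, and the 6 FVB wild-type mice read 15.66 to 15.89 with a median of 15.80. Every line 20b mouse lay above every wild-type mouse (log2 change 0.33, SE 0.05, limma adjusted p = 9.32e-05). The suffix _x_at marks a probe set some of whose probes also match other transcripts, so this reading can include related myosins. At the probe set 1452465_at the line 20b mice read 8.63 to 9.75 (median 8.93), against 7.53 to 8.07 (median 7.81) in wild type, again without overlap (1.28, SE 0.15, 2.43-fold, limma adjusted p = 1.26e-05). At 1427520_a_at they read 14.13 to 14.37, against 14.06 to 14.26, and the probe set was not called (0.12, SE 0.06, limma adjusted p = 0.223). The 3 Myh1 probe sets thus differ in the size of the change, from 0.12 to 1.28.

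Myh4 was lower at both of its probe sets. The lead, 1427026_at, read 16.62 to 16.70 (median 16.68) in line 20b and 16.78 to 16.89 (median 16.85) in wild type, and the groups did not overlap (-0.17, SE 0.03, limma adjusted p = 0.00025). After quantile normalisation the change of this bright probe set was -0.03 with a limma adjusted p of 0.564. The probe set 1458368_at read 15.90 to 16.25 (median 16.05) in line 20b and 16.18 to 16.54 (median 16.37) in wild type (-0.30, SE 0.07, limma adjusted p = 0.00879), with mouse 2 of line 20b inside the wild-type range. After quantile normalisation the change of 1458368_at was -0.17 (limma adjusted p = 0.0219). For Myh2 the line 20b mice read 15.10 to 15.46 (median 15.19) and the wild-type mice 15.02 to 15.87 (median 15.36), which overlap (-0.18, SE 0.11, limma adjusted p = 0.338). The wild-type mice 1 and 2 held the lowest Myh2 values of their group, 15.22 and 15.02, and without them the change was -0.33 and was called (limma adjusted p = 0.0362).

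**Figure D2:**
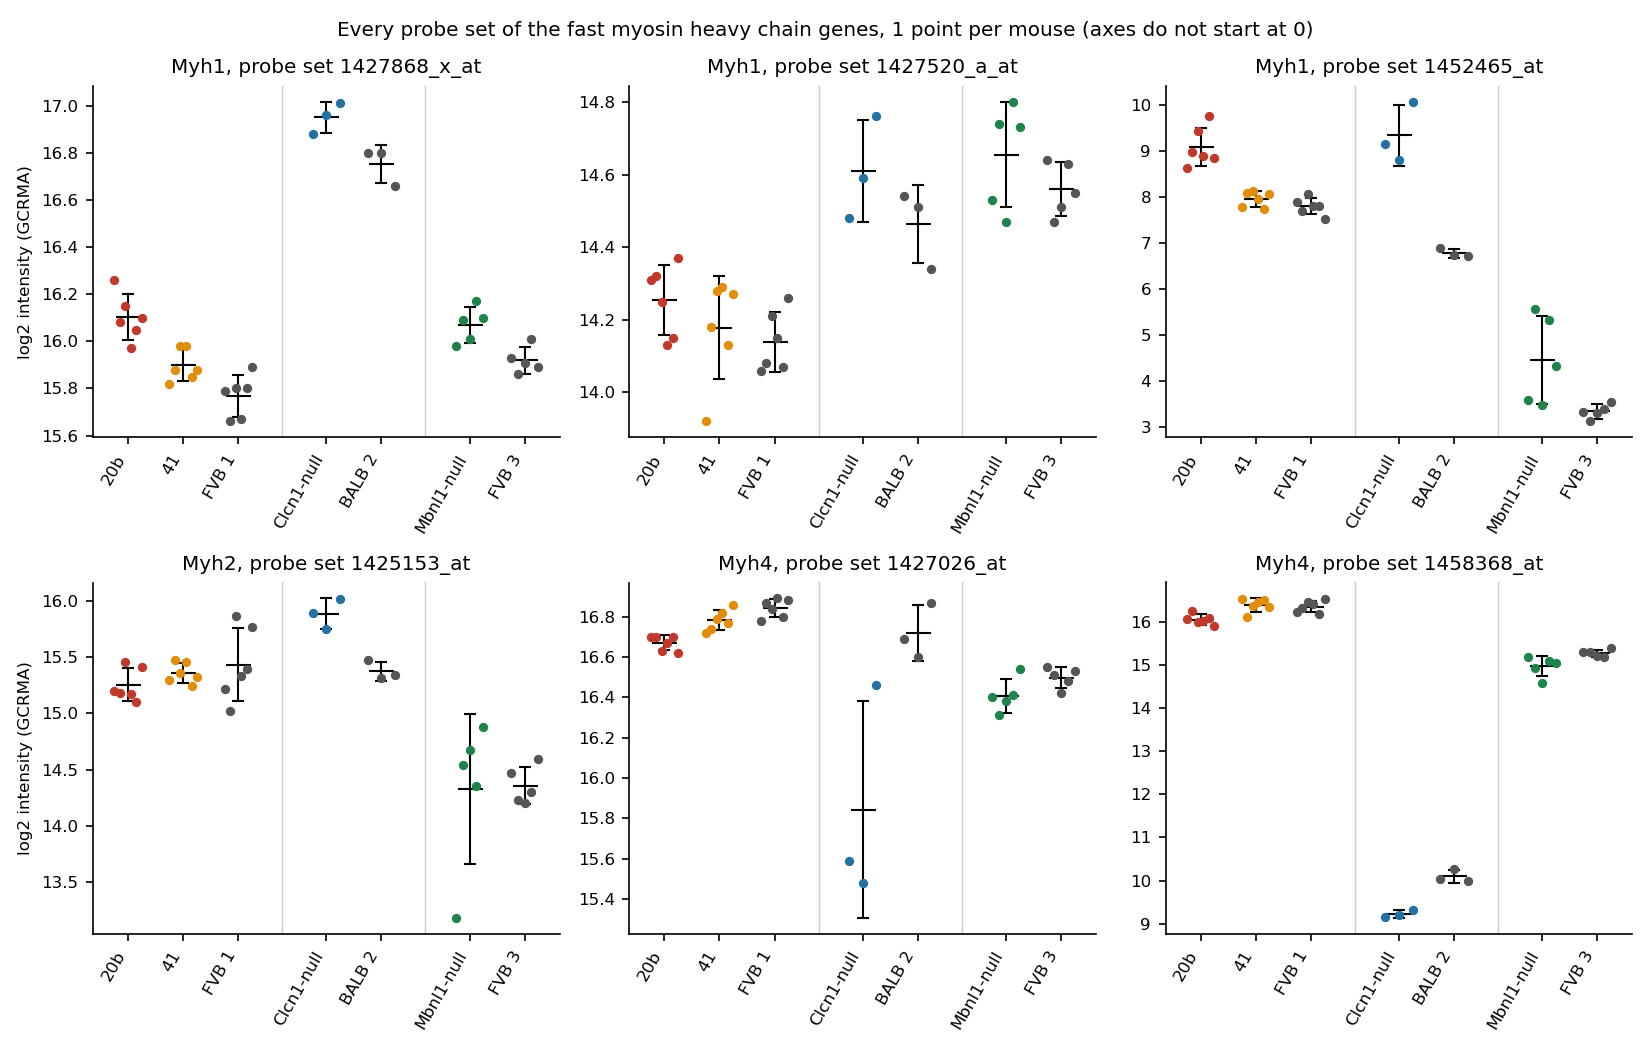
log2 intensity of the 6 probe sets of Myh1, Myh2 and Myh4 by group, with 1 point per mouse and bars at the mean and SD (n = 6, 6, 6, 3, 3, 5 and 5). Line 20b lies above FVB wild type (FVB 1) at Myh1 1427868_x_at and 1452465_at and below it at Myh4 1427026_at, and Myh4 1458368_at reads 9.15 to 10.26 in the BALB-background mice.

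Mylpf, the regulatory light chain that the kinase encoded by Mylk2 phosphorylates, read 15.91 to 16.14 in line 20b and 15.90 to 16.17 in wild type (-0.07, SE 0.05, limma adjusted p = 0.393). Its kinase fell. Mylk2 read 11.61 to 12.17 (median 12.15) in line 20b, with mice 3 and 6 lowest at 11.61 and 11.72, and 12.38 to 12.79 (median 12.51) in wild type. No line 20b mouse reached the wild-type range (-0.55, SE 0.11, 0.682-fold, limma adjusted p = 0.0012).

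Troponin T binds tropomyosin, troponin I holds back contraction and troponin C binds calcium. Tnnt3 read 15.99 to 16.16 in line 20b and 16.14 to 16.30 in wild type (-0.14, SE 0.05, limma adjusted p = 0.0633), just outside the threshold. It was called without line 41 mouse 6, which shares the estimate of the spread (limma adjusted p = 0.0313). After quantile normalisation the Tnnt3 change was -0.03 (limma adjusted p = 0.807). Tnnc2 read 16.14 to 16.38 in line 20b and 16.10 to 16.48 in wild type (-0.08, SE 0.07, limma adjusted p = 0.488). The 3 Tnni2 probe sets all had changes below 0, with 95% intervals that overlap, and only 1 was called. The lead, 1416889_at, was not called (-0.06, SE 0.06), nor was 1438609_x_at (-0.12, SE 0.05, limma adjusted p = 0.081), which was called without line 20b mouse 6 (-0.15, limma adjusted p = 0.0254). After quantile normalisation the change of 1438609_x_at was -0.03 (limma adjusted p = 0.764). The probe set 1438608_at read 9.09 to 9.31 in line 20b, against 9.34 to 9.52 in wild type, without overlap (-0.25, SE 0.06, limma adjusted p = 0.01). Without the wild-type mice 1 and 2 this call was lost (-0.22, limma adjusted p = 0.0581).

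Actn3, the alpha-actinin that crosslinks actin at the Z-discs of fast fibres, read 15.82 to 16.08 (median 16.02) in line 20b and 16.03 to 16.24 (median 16.12) in wild type, with overlap (-0.13, SE 0.04, limma adjusted p = 0.0466). Mouse 3 of line 20b was lowest. The call was lost when any 1 of 12 of the 18 mice was left out, and without the wild-type mice 1 and 2 together (-0.13, limma adjusted p = 0.106), and the change was -0.02 after quantile normalisation (limma adjusted p = 0.834). Pvalb read 15.39 to 15.60 in line 20b and 15.34 to 15.67 in wild type (-0.07, SE 0.07, limma adjusted p = 0.53). Adipocyte markers moved beside these comparisons: the summed intensity of 6 markers was 29400 to 39800 in line 20b and 41220 to 119500 in wild type. All 5 tested adipocyte markers were lower in line 20b, but 1 of 5 was without the wild-type mice 1 and 2 (list median -1.17 with them and -0.63 without), and Lep was under an intensity of 32 in every line 20b mouse. Of 8 endothelial and mural markers 6 were lower, and 4 without the wild-type mice 1 and 2, with summed intensities of 30300 to 37200 in line 20b and 38500 to 51800 in wild type. Their part in the results was not tested. In whole muscle, fewer fibres of a type and less RNA per fibre cannot be told apart.

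**Figure D3:**
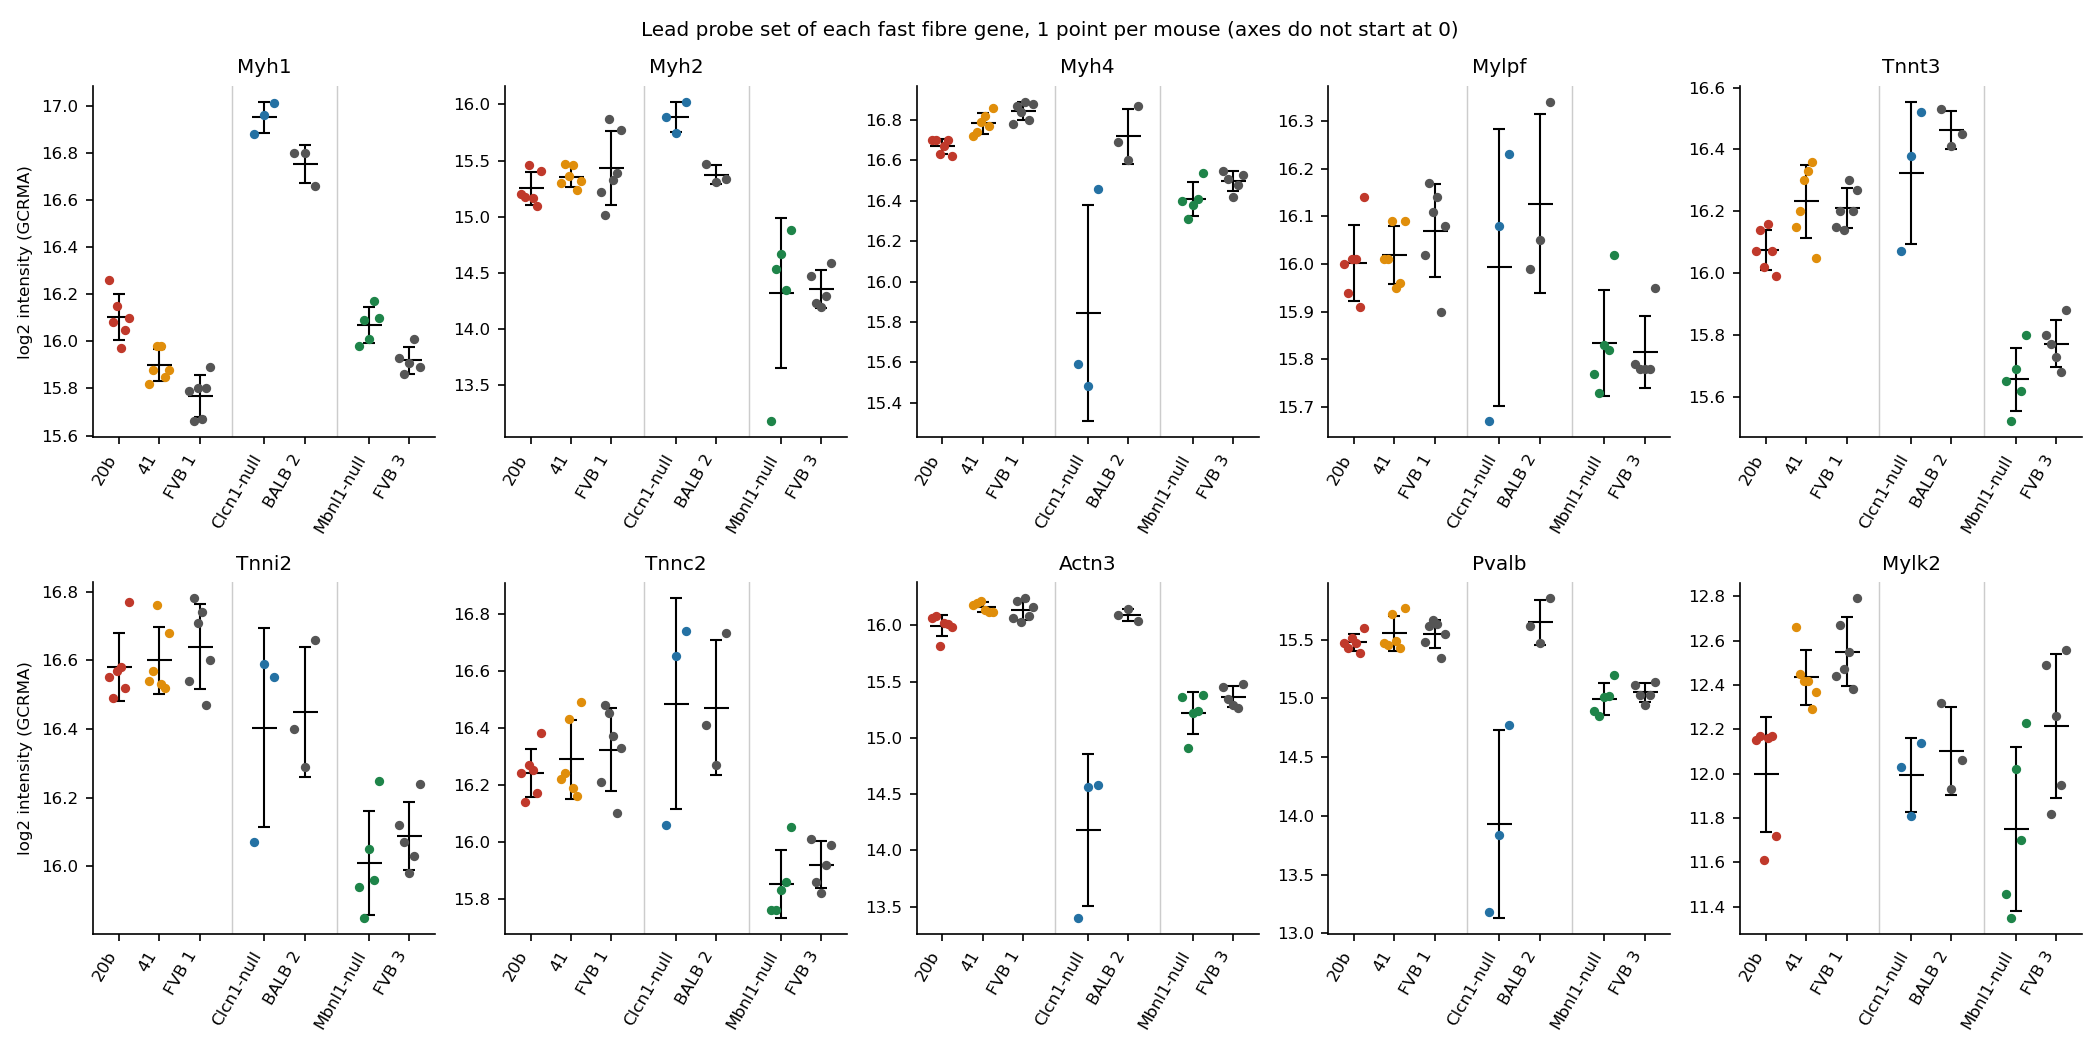
log2 intensity of the lead probe set of each of the 10 genes by group, with 1 point per mouse and bars at the mean and SD (n = 6, 6, 6, 3, 3, 5 and 5). Actn3 and Pvalb lie lower in Clcn1-null than in BALB wild type (BALB 2), and the 3 troponins and Mylpf overlap between mutant and wild type in every experiment.

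In line 41 no member passed the test against the same FVB wild-type mice. Of the 15 probe sets 0 were called by limma, where 8.49% of all probe sets were (3.88% higher and 4.61% lower), and 2 had an unadjusted p under 0.05. In 0 of the 15 did the groups not overlap, against 3.88% of all probe sets. Of the endothelial and mural markers 6 of 8 were lower in line 41 as well, and 4 without the wild-type mice 1 and 2, with summed intensities of 23400 to 35900 in line 41 and 38500 to 51800 in wild type. The log2 changes ran from -0.11 for Mylk2 to 0.15 for Myh1 1452465_at, with a median of -0.03. The largest change of a lead probe set above 0 was that of Myh1, at 15.82 to 15.98 (median 15.88) in line 41, against 15.66 to 15.89 (median 15.80) in wild type (0.13, SE 0.05, limma adjusted p = 0.105). After quantile normalisation that change was 0.21 and was called (limma adjusted p = 0.0126). Myh4 read 16.72 to 16.86 at its lead probe set in line 41, against 16.78 to 16.89 in wild type (-0.06, SE 0.03, limma adjusted p = 0.222). Mylk2 read 12.29 to 12.66 in line 41, against 12.38 to 12.79 (-0.11, SE 0.11).

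Set directly against each other, the lines differed at 4 of the 10 genes. Myh1, at 1427868_x_at and 1452465_at, was higher, and Myh4, Actn3 and Mylk2 were lower, in line 20b than in line 41. The Myh1 probe set 1427520_a_at was not called (0.08, SE 0.06, limma adjusted p = 0.575). Of the 15 probe sets 2 were higher and 4 lower (5.91% of all probe sets were called, 2.62% higher and 3.29% lower), and 4 did not overlap (3.83% of all). Myh1 1452465_at showed the largest difference of the members, 8.63 to 9.75 in line 20b and 7.73 to 8.12 in line 41, without overlap (1.13, SE 0.15, 2.18-fold, limma adjusted p = 0.000393). The lead Myh1 probe set differed by 0.20 (SE 0.05, limma adjusted p = 0.0183), and mouse 4 of line 20b, at 15.97, fell just inside the line 41 range of 15.82 to 15.98. Mylk2 read at most 12.17 in line 20b and at least 12.29 in line 41 (-0.44, SE 0.11, limma adjusted p = 0.0182). Myh4 differed by -0.33 at 1458368_at (SE 0.07, limma adjusted p = 0.0125). At its lead probe set it read at most 16.70 in line 20b and at least 16.72 in line 41 (-0.11, SE 0.03, limma adjusted p = 0.0197). The lead Myh4 call was lost after quantile normalisation (-0.06) and after a median shift (-0.08). Actn3 read 15.82 to 16.08 in line 20b and 16.12 to 16.22 in line 41 (-0.16, SE 0.04, limma adjusted p = 0.0345), and its call was lost when any 1 of 8 mice was left out. The Actn3 call was also lost after quantile normalisation (-0.10, limma adjusted p = 0.254) and after a median shift (-0.13, limma adjusted p = 0.12). Tnnt3 was not called (-0.16, SE 0.05, limma adjusted p = 0.0658) but was called without line 41 mouse 6, the lowest of that line at 16.05 (limma adjusted p = 0.0118). After quantile normalisation the Tnnt3 change was -0.07 (limma adjusted p = 0.543). The remaining members, Myh2, Mylpf, Tnni2, Tnnc2 and Pvalb, were not called at any probe set.

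**Figure D4:**
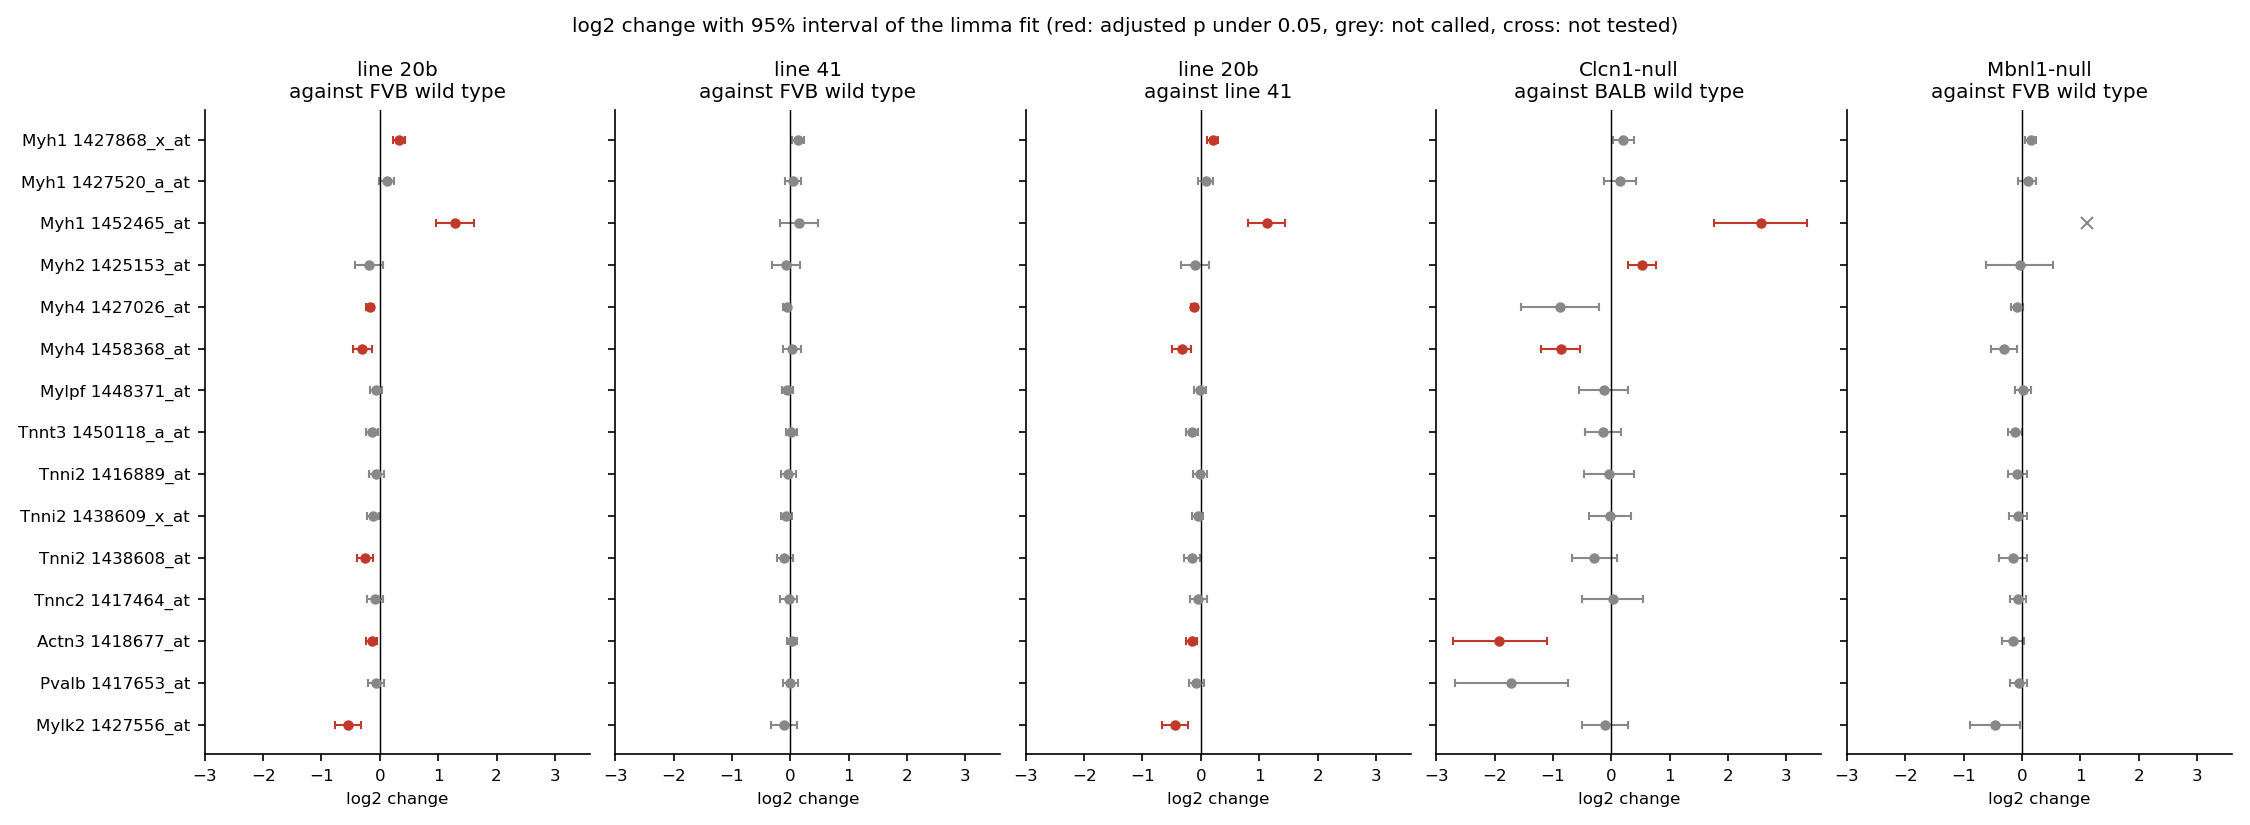
log2 change, first group minus second, of the 15 probe sets in the 5 comparisons, with the 95% interval of the limma fit. Called probe sets are red, those not called are grey, and a cross marks Myh1 1452465_at in experiment 3, which was not tested.

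In Clcn1-null muscle, which lacks the chloride channel that steadies the fibre membrane, Actn3 fell to 0.264-fold of BALB wild type, and Myh2 and a Myh1 probe set rose. Of the 2 Myh4 probe sets 1458368_at fell, which reads dim on this background. Of the 15 probe sets 2 were higher and 2 lower (4.21% of all 25944 tested were called, 1.72% higher and 2.49% lower). In 7 of the 15 the groups did not overlap, beside 28.4% of all probe sets, with 3 mice in each group. The members not called were the troponins, Mylpf, Mylk2, Pvalb and the other probe sets of Myh1 and Myh4.

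The type IIA heavy chain Myh2 read 15.89, 15.75 and 16.02 in Clcn1-null mice 1, 2 and 3, against 15.47, 15.31 and 15.34 in BALB wild type (0.52, SE 0.10, 1.43-fold, limma adjusted p = 0.0486). Every Clcn1-null mouse lay above every wild type. Myh1 1452465_at read 9.14, 8.80 and 10.06 in Clcn1-null mice and 6.89, 6.73 and 6.71 in wild type (2.56, SE 0.33, 5.89-fold, limma adjusted p = 0.0175). The brighter Myh1 probe set 1427868_x_at read 16.88, 16.96 and 17.01 in Clcn1-null mice, against 16.80, 16.80 and 16.66, and was not called although the groups did not overlap (0.20, SE 0.07, limma adjusted p = 0.217). Myh1 1427520_a_at overlapped (0.14, SE 0.11).

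Myh4 1458368_at read far lower in both groups of this experiment than in FVB-background mice (values further on), and whether it reports Myh4 alike on both backgrounds was not tested. It read 9.15, 9.19 and 9.32 in Clcn1-null mice, against 10.03, 10.26 and 9.99 in BALB wild type (-0.87, SE 0.13, 0.546-fold, limma adjusted p = 0.0294). The lead Myh4 probe set changed by nearly the same amount, -0.88, with a larger spread (SE 0.27, limma adjusted p = 0.154). It read 15.59, 15.48 and 16.46 in Clcn1-null mice and 16.69, 16.60 and 16.87 in wild type. Mouse 3 of the Clcn1-null group was the nearest to wild type, and without it the change was -1.19 and was called (limma adjusted p = 0.00949).

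Actn3 showed the largest fall of a called member, with 13.40, 14.56 and 14.58 in Clcn1-null mice and 16.09, 16.15 and 16.04 in wild type (-1.92, SE 0.33, limma adjusted p = 0.0369). Mouse 1 was lowest. Pvalb read 13.18, 13.84 and 14.77 in Clcn1-null mice and 15.62, 15.47 and 15.85 in wild type. The Pvalb groups did not overlap, but the test was not passed (-1.72, SE 0.39, 95% interval -2.68 to -0.75, limma adjusted p = 0.0789). Without Clcn1-null mouse 3 the Pvalb change was -2.13 (limma adjusted p = 0.0137). The troponins and the light chain overlapped between the groups. Tnnc2 read 16.06, 16.65 and 16.74 in Clcn1-null mice and 16.41, 16.27 and 16.73 in wild type (0.02, SE 0.21). Tnni2 at its lead (-0.04, SE 0.17), Mylpf (-0.13, SE 0.17), Tnnt3 (-0.14, SE 0.13) and Mylk2 (-0.11, SE 0.16) were not called. Mylk2 has a 95% interval of -0.50 to 0.28 here, which takes in 0.

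Leaving out single mice changed the calls in the Clcn1-null comparison. The count of 4 became 1 without Clcn1-null mouse 1, 1 without mouse 2 and 6 without mouse 3, and 0 without any one of the 3 BALB wild-type mice. The share of all probe sets called in these runs is not given here, so the counts are not read as particular to the members. The changes kept their direction, and with 1 mouse left out Actn3 lay between -2.12 and -1.53, Myh2 between 0.45 and 0.59, Myh1 1452465_at between 2.19 and 2.83 and Myh4 1458368_at between -0.92 and -0.79. Adipocyte markers were higher in Clcn1-null mice, 5 of 5 tested, with a summed intensity of 112000 to 142000, against 46500 to 57300 in wild type, while Lep stayed under an intensity of 32 in both groups. Their part in the fast fibre values was not tested.

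In Mbnl1-null muscle no fast fibre probe set was called by limma, 0 of the 14 tested, where 16.2% of all 16229 tested probe sets were (7.28% higher and 8.92% lower). An unadjusted p under 0.05 was reached by 3, and in 0 of 14 did the groups not overlap, against 14.3% of all. The median change of the 14 was -0.08. Myh1 1427868_x_at was next to the threshold, with 15.98, 16.09, 16.01, 16.17 and 16.10 in Mbnl1-null mice and 15.93, 15.86, 15.91, 16.01 and 15.89 in FVB wild type (0.15, SE 0.05, limma adjusted p = 0.0515). Myh4 1458368_at read 15.18, 14.93, 14.59, 15.10 and 15.05 in Mbnl1-null mice and 15.30, 15.30, 15.21, 15.18 and 15.39 in wild type (-0.31, SE 0.10, limma adjusted p = 0.0551). Both were called without Mbnl1-null mouse 1 (0.17, limma adjusted p = 0.0312, and -0.36, limma adjusted p = 0.0304).

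That mouse had the lowest Myh2 value of the 10 in experiment 3, 13.18, while the other 4 Mbnl1-null mice read 14.35 to 14.88 and the wild types 14.20 to 14.59. The Myh2 change was -0.03 (SE 0.26) with it and 0.25 without it, not called either way (limma adjusted p = 0.953 and 0.163). Mylk2 read 11.46, 11.35, 12.02, 11.70 and 12.23 in Mbnl1-null mice and 12.49, 11.82, 12.26, 11.95 and 12.56 in wild type, which overlap (-0.46, SE 0.19, 95% interval -0.89 to -0.04, limma adjusted p = 0.124). Actn3 (-0.15, SE 0.09), Pvalb (-0.05, SE 0.07), Tnnt3 (-0.11, SE 0.06), Tnnc2 (-0.07, SE 0.06), Tnni2 at its lead (-0.08, SE 0.08) and Mylpf (0.02, SE 0.06) were not called. Myh1 1452465_at was too dim in experiment 3 to be tested. It read 3.49 to 5.56 in Mbnl1-null mice and 3.13 to 3.56 in wild type, and the wild-type mice were all under the log2 minimum of 5.

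Mylk2 values stand side by side as follows: -0.55 for line 20b, -0.11 for line 41, -0.11 for Clcn1-null mice and -0.46 for Mbnl1-null mice. The lead Myh1 changes were 0.33, 0.13, 0.20 and 0.15 in the same order, and those of Actn3 were -0.13, 0.03, -1.92 and -0.15. Line 20b and line 41 share their wild-type mice, and differences between the experiments were not tested, since the experiments differ in strain, age or array.

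Myh4 1458368_at also differed between the experiments themselves. It read 9.15 to 10.26 in all 6 mice of the BALB background and 14.59 to 16.54 in all 28 mice of the FVB background. In percentiles of the array it stood between 70.08 and 78.26 in the BALB-background mice and between 99.71 and 99.99 in the FVB-background mice. The lead Myh4 probe set did not show such a gap, with 16.60 to 16.87 in BALB wild type, 16.78 to 16.89 in the FVB wild type of experiment 1 and 16.42 to 16.55 in that of experiment 3. Among wild types, the mean of 1458368_at was lower by 6.27 in experiment 2 than in experiment 1, on the same type of array (difference -6.27). No other member probe set differed by more than 1.02 in size between those wild types. Strain, age and experiment cannot be told apart between experiments 1 and 2. Whether the experiments were normalised together is not given in the sources used here, so these are levels set side by side with no test.

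Within groups, some members varied together from mouse to mouse. In experiment 1 the deviations from the group mean of Mylpf, Tnni2, Tnnc2 and Pvalb correlated at r = 0.87 to 0.95 over 18 mice in all 6 pairs of these genes. The other 39 pairs ran from -0.43 to 0.71 with a median of 0.06. In experiment 3, over 10 mice, the same 6 pairs ran from 0.85 to 0.96 and the other 39 from -0.29 to 0.95 with a median of 0.61. Tnnt3 differed between the experiments, with r = -0.38 to -0.20 against these 4 genes in experiment 1 and 0.74 to 0.95 in experiment 3, and that difference was not tested. In experiment 2, over 6 mice, the 6 pairs and the other 39 ran from 0.75 to 0.99 and from -0.12 to 0.94. These 4 genes were singled out after their values were seen. All values of a mouse on 430A share 1 array and 1 RNA sample, so the correlations are given as a description.

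**Figure D5:**
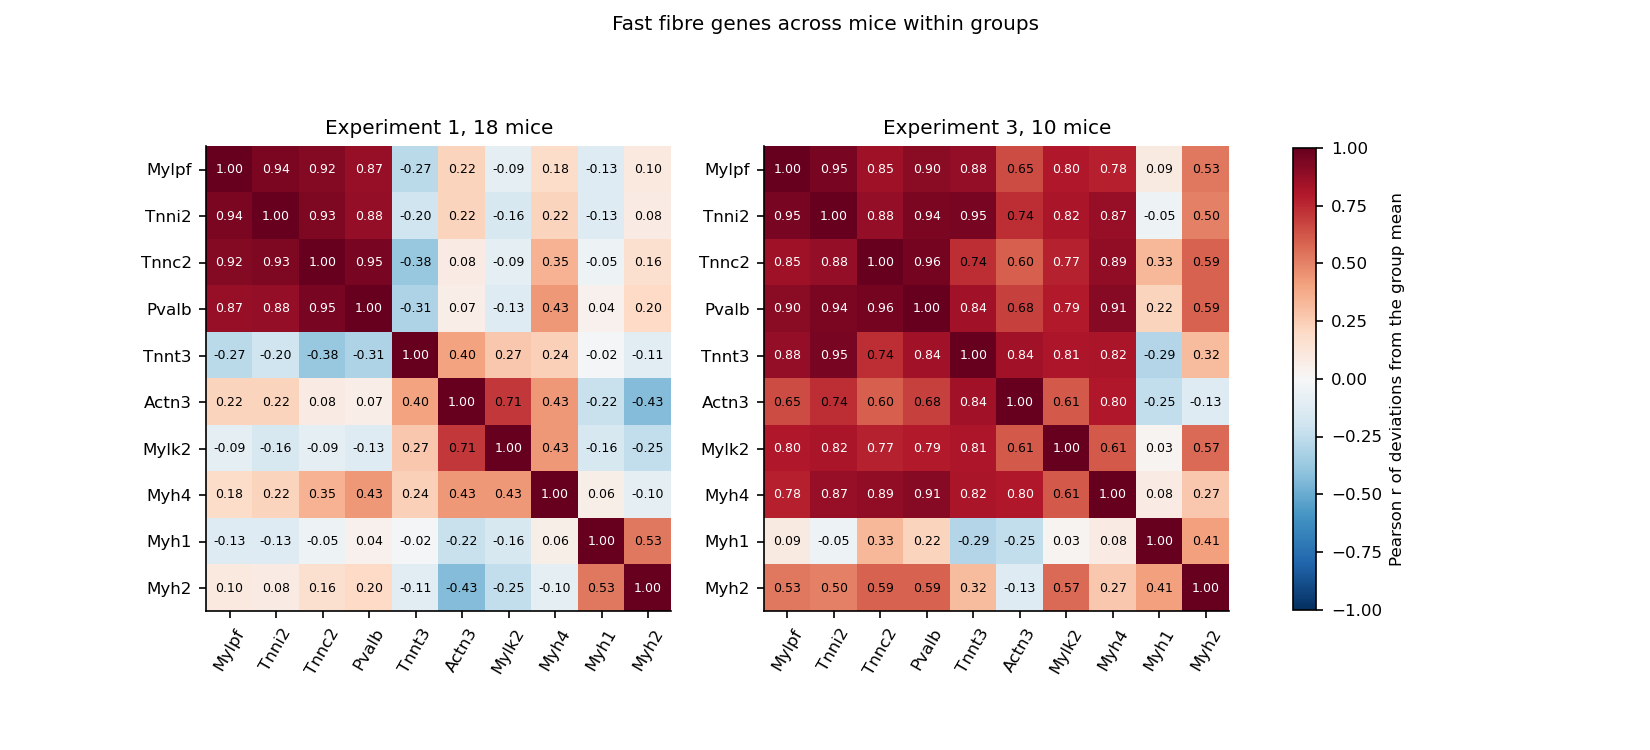
Pearson correlation of the lead probe sets across mice, after subtracting each group's mean, in experiment 1 (18 mice) and experiment 3 (10 mice). Mylpf, Tnni2, Tnnc2 and Pvalb correlate with each other at 0.85 to 0.96 in experiment 3 and 0.87 to 0.95 in experiment 1, and Myh1 lies between -0.13 and 0.33 against these 4 genes.

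The companion lists place the members beside the rest of the sarcomere, with counts by gene at its lead probe set. Of 17 other fast fibre genes, 2 were higher and 3 lower in line 20b (2 and 4 without the wild-type mice 1 and 2). Mybph, a myosin binding protein (2.28, SE 0.24), and Myoz3, a fast Z-disc protein (0.36, SE 0.09), rose, and Gpd1, a glycerol phosphate dehydrogenase (-0.75, SE 0.15), Pygm, the muscle glycogen phosphorylase (-0.30, SE 0.04), and Casq1, the fast calcium store protein calsequestrin (-0.22, SE 0.06), fell, the last named after its value was seen. In line 41, 2 of the 17 were higher, Mybph (1.77, SE 0.24) and Myoz3 (0.48, SE 0.09), and 0 lower. In line 20b against line 41, 0 were higher and 4 lower, Gpd1 (-0.70, SE 0.15), Casq1 (-0.23, SE 0.06), Ryr1, the calcium release channel (-0.22, SE 0.06), and Pygm (-0.22, SE 0.04). In Clcn1-null mice 0 were higher and 6 lower, with a list median of -0.40, beside 0.02 for all genes. Ampd1, the muscle AMP deaminase (-2.22, SE 0.18), Mybph (-2.05, SE 0.29), Myoz3 (-1.27, SE 0.15) and Casq1 (0.498-fold) fell most. In Mbnl1-null mice Mybph rose (1.44, SE 0.19) and Gpd1 (-0.70, SE 0.13) and Tmod4, a thin filament capping protein (-0.27, SE 0.06), fell, and 14 were not called. Mybph was thus higher in line 20b, line 41 and Mbnl1-null mice and lower in Clcn1-null mice.

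Of the slow fibre genes 14 are on the arrays. In line 20b 2 of 12 tested were higher and 0 lower, and the same counts held in line 41. The list median in line 20b was 0.58, and -0.70 without the wild-type mice 1 and 2, where the counts were 2 and 1. Called with all mice were Sln, the calcium pump inhibitor sarcolipin (7.34, SE 0.66, in line 20b and 6.91, SE 0.66, in line 41), and Mybpc1, a slow myosin binding protein (0.69, SE 0.06, in line 20b and 0.27, SE 0.06, in line 41). Mybpc1 was also the 1 gene that was higher in line 20b than in line 41 (0.42, SE 0.06), and 0 were lower. In line 41 the Mybpc1 call was lost without the wild-type mice 1 and 2 (limma adjusted p = 0.0558). In Clcn1-null mice 3 of 13 were higher and 5 lower, among them Myh7, the slow heavy chain (-4.11, SE 0.77), Tnni1, slow troponin I (-3.40, SE 0.65), Sln (4.00, SE 0.38) and Tnnc1, slow troponin C (-2.44, SE 0.33). In Mbnl1-null mice 2 of 12 were higher and 7 lower, with Sln (4.77, SE 0.68), Myh7 (-4.61, SE 1.25), Tpm3, slow tropomyosin (-3.73, SE 0.58), and Tnnc1 (-3.55, SE 0.62). The mean log2 value of the list was 8.09 to 10.20 for Mbnl1-null mice, against 10.33 to 10.74 for FVB wild type.

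Among 22 measured genes of the thick filament, thin filament and Z-disc of all fibres, 9 were higher and 2 lower in line 20b, with Lmod2, an actin filament nucleator (1.48, SE 0.17), Flnc, a Z-disc filamin (1.35, SE 0.27), and Actn2, the alpha-actinin of all fibres (0.74, SE 0.12), highest. Actn2 was higher in Clcn1-null mice too (1.61, SE 0.10), where its fast relative Actn3 fell, and 4 of the 22 were higher and 1 lower there. Line 41 had 4 higher and 1 lower (3 and 2 without the wild-type mice 1 and 2, with 2 genes called both times), line 20b against line 41 had 3 and 0 (5 and 0 without them), and Mbnl1-null mice had 4 and 1 of 21 tested. Of the embryonic, extraocular and cardiac sarcomere genes, Myh3, the embryonic heavy chain, was higher in line 20b (1.06, SE 0.29), line 41 (1.29, SE 0.29), Clcn1-null (3.13, SE 0.23) and Mbnl1-null mice (1.89, SE 0.19). Counts of this list were 2 higher and 1 lower of 6 in each line, 0 and 0 between the lines, 1 and 1 of 6 in Clcn1-null and 4 and 0 of 5 in Mbnl1-null mice. Without the wild-type mice 1 and 2 Myh3 was not called in line 20b (0.93, limma adjusted p = 0.0783) or line 41 (1.16, limma adjusted p = 0.0539), and the list had 0 higher and 1 lower in line 20b and 1 and 1 in line 41.

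Of the regulators of fibre type, 6 of 25 were higher and 3 lower in line 20b (4 and 2 without the wild-type mice 1 and 2), led by Nfatc2, a calcineurin-driven transcription factor (1.03, SE 0.12), Six2, a homeodomain transcription factor (-1.02, SE 0.16), and Tead4, an MCAT-binding factor (0.80, SE 0.23), whose call was lost without those mice (0.77, limma adjusted p = 0.0637). In line 41 1 was higher, Nfix, which acts in fetal fibre programmes (0.28, SE 0.08), and 0 lower. Against line 41, line 20b had 3 higher and 1 lower (2 and 1 without the wild-type mice 1 and 2), led by Nfatc2 (0.68, SE 0.12) and Six2 (-0.59, SE 0.16). In Clcn1-null mice 0 of 26 were higher and 2 lower, Eya1, a transcriptional coactivator (-1.22, SE 0.20), and Six2 (-0.93, SE 0.13). In Mbnl1-null mice 2 of 23 were higher and 4 lower, led by Nfatc2 (1.02, SE 0.12) and Six2 (-0.71, SE 0.13).

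Mylk2 belongs to the genes of myosin light chain phosphorylation, of which 10 others were measured. Ppp1r12b, a targeting subunit of the phosphatase that removes the phosphate, was higher in line 20b (0.54, SE 0.08), line 41 (0.38, SE 0.08) and Mbnl1-null mice (0.62, SE 0.08). In line 20b 3 were higher and 3 lower, also with Camk2d, a calmodulin kinase (1.29, SE 0.13), Camk2a (-0.71, SE 0.24) and Camk2b (0.56, SE 0.10). The Camk2a call was lost without the wild-type mice 1 and 2 (limma adjusted p = 0.118). In line 41 2 were higher and 2 lower (2 and 0 without those mice), line 20b against line 41 gave 1 higher, Camk2d (0.54, SE 0.13), and 0 lower, and in Mbnl1-null mice 2 of 9 were higher and 2 lower, with Camk2b at 1.14 (SE 0.09). In Clcn1-null mice 0 of 9 were higher and 2 lower, Camk2a (-1.47, SE 0.16) and Camk2g (-0.82, SE 0.15).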

How the data were processed

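RNA of quadriceps from 34 male mice was prepared with Tri-Reagent and Enzo biotin kits, per the labels' protocols. The authors deposited linear intensities, 1 for each probe set and array. GCRMA made them, per the submitters' processing notes, and its version, its settings and whether experiments were normalised together are not given in the sources used here. Intensities were put on the log2 scale. Testing required log2 5 or more (intensity 32) in as many mice as the experiment's smallest group holds, which left 27330, 25944 and 16229 in experiments 1, 2 and 3. Each experiment was fitted apart with limma 3.58.1 in R 4.3.3 (lmFit, eBayes with a trend, 1 mean per group, no covariate, two-sided), with Benjamini-Hochberg adjustment over all tested probe sets and a threshold of 0.05. Symbols came from the supplied platform annotation: 34945 probe sets carry 1 symbol, 932 several and 9160 none. Arrays give no counts, so the number of mice limits the precision. A p-value sets a change against the spread between these mice, which eBayes moderates with that of all tested probe sets. All 10 genes and 15 probe sets are named. Companion lists give counts by lead probe set and name up to 4 called genes each. Members and lists were chosen with earlier results of these data known. The marker lists cover skeletal muscle, adipocyte, endothelial and mural, fibroblast and tendon, nerve and Schwann, and leukocyte and blood genes. Some genes of these lists were not analysed here. The fit was tested on simulated data with known changes.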

Additional observations from a re-analysis of the deposited data

Results flagged for a closer look

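A mouse far from the others of its group was looked for in 75 group values of the members, and 3 were found, where 3.75 would be found by chance at 1 in 20. The groups of experiment 2, with 3 mice each, were too small for this check and were left out of it. Tnni2 (1416889_at) read 16.77 in line 20b mouse 6, while the other 5 read 16.49 to 16.58. Actn3 read 15.82 in line 20b mouse 3, while the other 5 read 15.99 to 16.08. Mylpf read 15.95 in FVB wild-type mouse 5 of experiment 3, while the other 4 read 15.78 to 15.79.

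The line 20b and line 41 effects against their shared wild-type mice differed, by the limma test of line 20b against line 41, at 6 probe sets of 4 genes. The difference was 0.20 for Myh1 (1427868_x_at), 1.13 for Myh1 (1452465_at), -0.11 for Myh4 (1427026_at), -0.33 for Myh4 (1458368_at), -0.16 for Actn3 and -0.44 for Mylk2.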

How the results depend on the processing

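No called change of a member turned its sign under any alternative run. For the count of called member probe sets, line 20b against FVB wild type gave 5 to 8 of the 15 (7 as reported) and 4 of the 10 genes with 1 probe set per gene, line 41 gave 1 after quantile normalisation (0 as reported), and line 20b against line 41 gave 3 with eBayes without a trend and 1 at an adjusted p under 0.01 (6 as reported). Clcn1-null against BALB wild type gave 2 without a filter, 7 with array weights and 0 at an adjusted p under 0.01 (4 as reported). Mbnl1-null against FVB wild type gave 1 after quantile normalisation, 2 with a filter at log2 7, 1 with robust eBayes and 2 with array weights (0 as reported). Leaving out each mouse in turn gave 6 to 7 in line 20b, 0 to 0 in line 41, 5 to 7 between the lines, 0 to 6 in Clcn1-null and 0 to 2 in Mbnl1-null mice. Without FVB wild-type mice 1 and 2 together the counts of experiment 1 were 6, 0 and 6. Replicate numbers were shared between groups, but the deviations of same-numbered mice correlated at -0.15 to 0.40, so the numbers were not taken to pair mice. With the replicate number as a block the counts were 8, 0 and 6 in experiment 1, 0 in Clcn1-null and 3 in Mbnl1-null mice. A fit with array weights stopped before it converged. The share of all probe sets called in each of these runs is not given here, and the causes of the shifts were not tested. Over the single member probe sets 1775 results kept their side of the threshold, 75 lost a call and 25 gained one. Over the companion genes, taken up here where called, 2683 results kept their call and 372 lost it. With 3 mice against 3 a change must be large against its spread to be called.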
